A study of Mus musculus with 24 samples.

Results

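The genes described here are 45 mouse genes of autophagy and the lysosome. They were chosen by name from a list of core components, with earlier results of these data known. Of these, 22 encode parts of the machinery that builds and loads autophagosomes, 21 encode lysosomal proteins and 2 encode transcription factors of the pathway. All 45 are among the 10393 genes of the deposited 16 h table, and 44 are among the 7723 genes of the 72 h table, from which Atg14 is missing. Every member present passed the filter on low counts. The RNA came from hearts of wild-type (WT) mice. They had been given vehicle (V), the compound hesperitin (H, daily, 10 mg/kg), a dose of 25 mg/kg doxorubicin (DOX), or the pair of compounds (DOXH). Hesperitin is a citrus flavanone, and doxorubicin is an anthracycline cancer drug known for its toxicity to the heart. The 18 libraries used here form 6 groups of 3: V, H, DOX and DOXH at 16 h, and, 72 h after treatment, DOX and its vehicle. Each library is bulk RNA of whole heart tissue, and the number of animals per sample is not stated in the labels. The p-values therefore measure the spread between these samples.

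In autophagy, the ULK kinase complex starts a membrane, a lipid kinase complex around Beclin 1 marks it with PI3P, and a conjugation system attaches small ATG8 proteins (LC3 and GABARAP) to it. Receptors such as p62 bind cargo and ATG8 together, and the closed autophagosome fuses with a lysosome, whose proton pump acidifies it and whose cathepsins and other hydrolases degrade the content. TFEB and TFE3 are transcription factors that, when they enter the nucleus, bind an E-box-like element (CLEAR) in promoters of many of these genes. In the long-lived cells of heart muscle this route removes worn mitochondria and protein aggregates. Transcript levels, the quantity measured here, do not measure the flow of cargo through the pathway.

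The promoters of the lysosomal genes are shown first because the letters that TFEB-type factors recognise are visible in them. The E-box CACGTG, which reads the same on both strands, was searched in RefSeq promoter sequences of the GRCm38.p6 build, from 250 bases before to 50 bases after each annotated start. RefSeq sequences were found for 37 of the 45 members. An E-box was present in 8 of 18 lysosomal genes (44.4%) and 4 of 17 autophagosome genes (23.5%), beside 12.1% of 8273 matched genes of the 16 h table. The longer TCACGTG, searched on both strands and overlapping the E-box by construction, was present in 38.9%, 17.6% and 7.34% of the same sets. The windows below, each ending before the RefSeq start, carry the E-box in capitals. They were chosen to show the densest case, the lysosomal channel and enzyme genes, and one autophagosome gene. By the gene positions of GENCODE, the windows of Ctsd, Ctsl, Ctsa, Atp6v1a and Rubcn lie inside the gene. That of Mcoln1 lies partly inside, and those of Lamp1 and Gaa lie before the gene. Lamp1 encodes a major glycoprotein of the lysosomal membrane, Mcoln1 its calcium channel TRPML1, Ctsd, Ctsl and Ctsa the cathepsins D, L and A, Gaa acid alpha-glucosidase, Atp6v1a a catalytic subunit of the proton pump, and Rubcn the autophagy inhibitor Rubicon.
Lamp1: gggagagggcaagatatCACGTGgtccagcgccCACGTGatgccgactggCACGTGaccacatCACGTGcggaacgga
Mcoln1: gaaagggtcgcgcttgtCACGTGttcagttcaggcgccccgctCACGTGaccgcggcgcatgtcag
Ctsd: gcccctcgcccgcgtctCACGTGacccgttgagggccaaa
Gaa: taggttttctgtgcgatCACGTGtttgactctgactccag
Ctsl: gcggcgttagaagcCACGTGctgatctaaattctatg
Ctsa: aacaatgagcaaactgtCACGTGatgcag
Atp6v1a: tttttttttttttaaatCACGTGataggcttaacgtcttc
Rubcn: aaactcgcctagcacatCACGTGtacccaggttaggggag

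The Lamp1 window covers chr8:13159083-13159160 on the plus strand and holds 4 E-boxes in 78 bases. The Mcoln1 window lies at chr8:3500431-3500496 on the plus strand and holds 2. The Ctsl window lies at chr13:64370734-64370770 on the minus strand. Of the 8 lysosomal genes with an E-box, 2 were higher, 1 was lower and 5 were not past the threshold with doxorubicin at 72 h, and of the 10 without one, 4 were higher and 6 were not past it. The median log2 fold change was 0.09 with an E-box and -0.017 without at 16 h, and 0.077 and 0.074 at 72 h, a description that was not tested. None of the 4 ATG8-family genes with a RefSeq promoter held these letters in the window. A match is a description of the sequence and not evidence of binding.

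Summed counts ran from 9255651 to 11074450 in the 16 h libraries of DOX, DOXH and V, from 17664060 to 19869050 in those of H, and from 16607805 to 20587578 at 72 h. Levels are given in CPM (counts scaled to the size of the library, with TMM factors within a table), which cannot be compared between the tables. The 3 DOXH libraries did not lie together. On the first principal component of log2 CPM, replicate 3 lay at 17.7, near the V libraries (18.04 to 20.75), and replicate 2 at -35.1, among the DOX libraries (-42.2 to -29.4). All 10 cardiomyocyte markers were measured in every library, none at 0, as were 13 macrophage and 7 neutrophil markers at 16 h and 11 and 3 at 72 h. With doxorubicin all 10 cardiomyocyte markers were lower at 16 h and 8 were lower at 72 h. Their summed level was 30160 to 32020 CPM in DOX against 53340 to 61190 CPM in V at 16 h, and 17940 to 21920 CPM against 43980 to 51680 CPM at 72 h. Macrophage markers summed to 417 to 520 CPM in DOX and 345 to 423 CPM in V at 16 h (4 of 13 higher, 1 lower). At 72 h they summed to 441 to 564 CPM in DOX and 285 to 364 CPM in V (8 of 11 higher, 1 lower). Neutrophil markers at 16 h summed to 145 to 267 CPM in DOX and 24.9 to 77.2 CPM in V (1 of 7 higher). Those at 72 h summed to 26.4 to 133 CPM in DOX and 0.957 to 1.98 CPM in V (3 of 3 higher), and 5 erythroid markers to 20.6 to 33.0 CPM and 1436 to 3523 CPM (5 of 5 lower). Fibroblast markers at 72 h summed to 1022 to 1463 CPM in DOX and 587 to 787 CPM in V (2 of 7 higher, 1 lower), endothelial markers to 743 to 949 CPM and 656 to 713 CPM (4 of 8 higher, 1 lower), and mural markers to 789 to 879 CPM and 993 to 1025 CPM (2 of 8 lower). In bulk tissue, fewer cells of a type and less RNA per cell cannot be told apart, and the part of these shifts in the member results was not tested.

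Doxorubicin against vehicle asks how the drug moved the pathway within a day and after 3 days. At 16 h 6 members rose and 3 fell, and the 5 ATG8 genes were not among them. At 72 h 16 rose and 5 fell, among them every one of the 5 ATG8 genes, the p62 gene Sqstm1 and the cathepsin L gene Ctsl on the higher side, and the kinase genes Ulk1 and Ulk2, Lamp1, the cathepsin B gene Ctsb and Tfeb on the lower side. A member was called when the edgeR adjusted p, over all genes tested, was under 0.05. The counts at 16 h and 72 h are not on equal terms. The 16 h fit took its spread from all 12 libraries, H and DOXH included, and its V and DOX libraries were less deep. With only V and DOX fitted at 16 h, 11 members were higher and 5 lower, none of them an ATG8 gene. That fit called 44% of all genes. The 9 of 45 members called at 16 h (20.0%) stand beside 32.3% of all genes, and the 21 of 44 called at 72 h (47.7%) beside 53.7%, so the share of members that moved was not above that of genes in general. By direction, 15.6% of all genes were higher and 16.6% lower at 16 h, and 26.5% higher and 27.2% lower at 72 h. Of the members, 13.3% were higher and 6.67% lower at 16 h, and 36.4% higher and 11.4% lower at 72 h. The median log2 fold change of the members was 0.08 at 16 h and 0.07 at 72 h, beside 0.02 and 0.01 for all genes. Of the 44 members in both tables, 5 were higher at both times (Sqstm1, Becn1, Ctsl, Npc2 and Atp6v1h), Tfeb was lower at both, and 20 members over both tables were past the threshold at neither time.

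**Figure D1:**
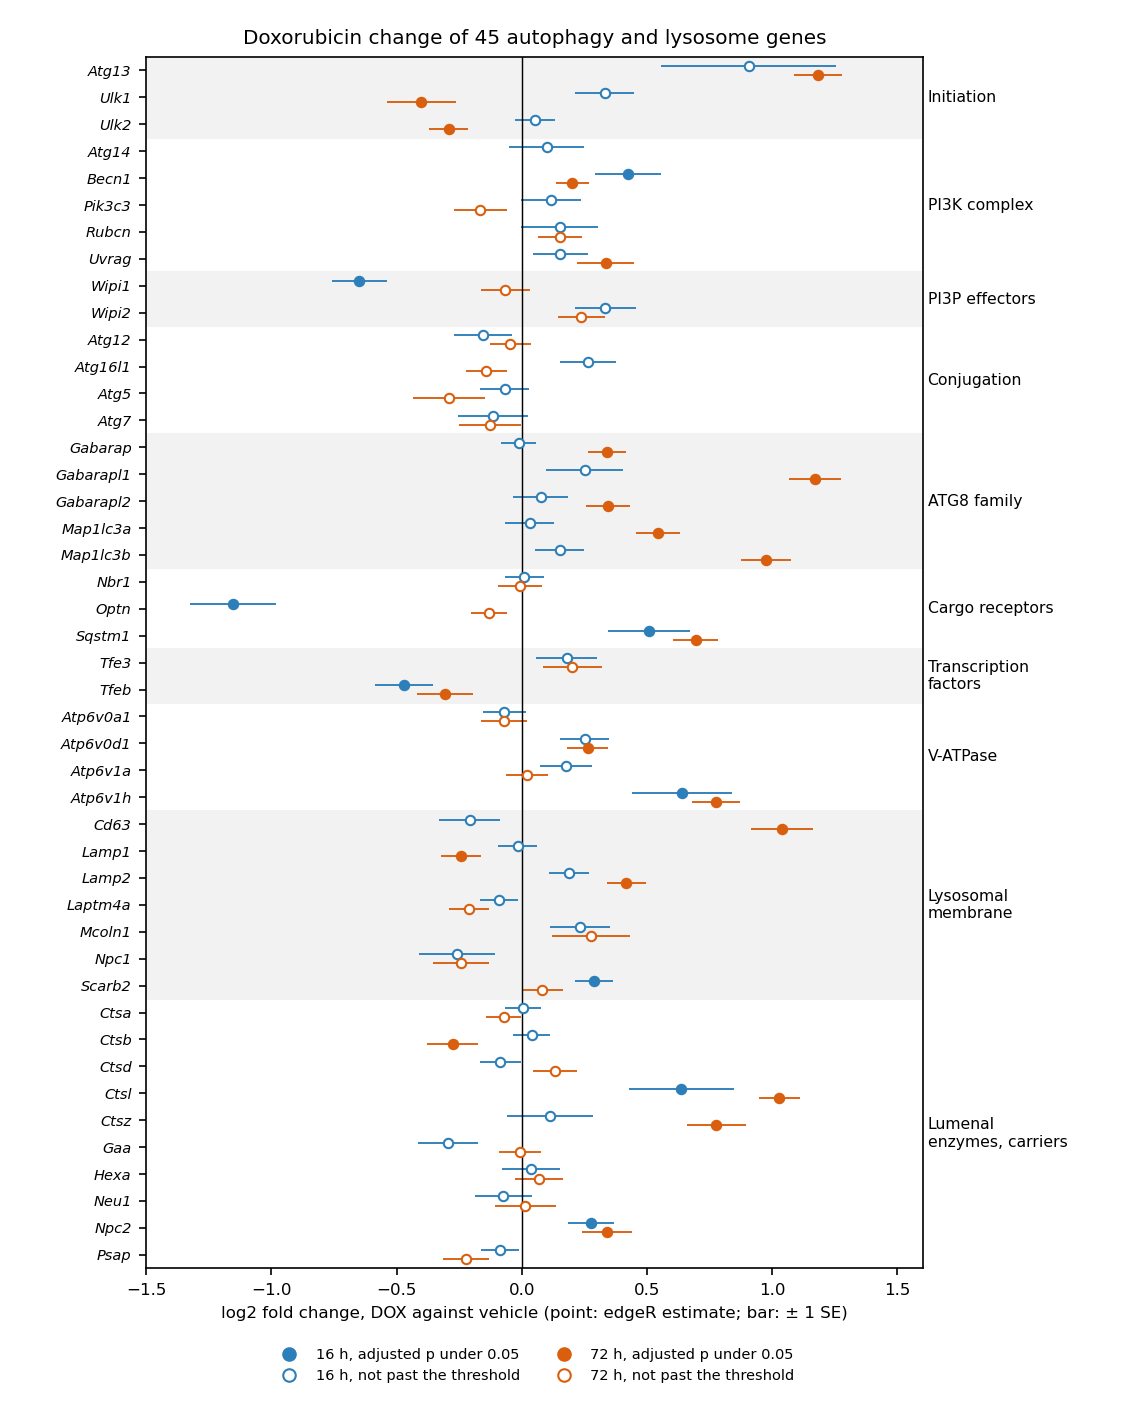
Log2 fold change of DOX against V for each of the 45 genes (horizontal axis, edgeR estimate ± 1 SE, n = 3 libraries per group), by role, at 16 h in blue and 72 h in orange. Filled points passed an adjusted p of 0.05: the ATG8 family is filled at 72 h only, and Optn at -1.15 is the lowest point at 16 h.

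Of the 22 autophagosome genes, 2 rose at 16 h and 2 fell, with a median log2 fold change of 0.11. At 72 h 9 of 21 rose and 2 fell, with a median of 0.15. The lysosomal genes gave 4 higher and 0 lower of 21 at 16 h (median 0.04), and 7 higher and 2 lower of 21 at 72 h (median 0.07). The 3 DOX libraries at 16 h did not overlap the 3 V libraries in 22 members, 14 above and 8 below, and in 56.4% of all genes, 28.4% above and 28% below. The 72 h groups did not overlap in 26 members, 16 above and 10 below, and in 63.5% of all genes, 31.3% above and 32.2% below.

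The ATG8 family supplies the proteins that coat the autophagosome membrane. At 72 h Gabarapl1, on chr6:129533160-129542346, read 178, 149 and 140 CPM in the DOX libraries and 67.7, 72.4 and 67.6 CPM in the V libraries. Every DOX library was therefore at about double the V level or above it, with no overlap, and the log2 fold change was 1.17 ± 0.10 (SE; edgeR adjusted p = 4.37e-05). Map1lc3b, which encodes LC3B, the usual marker of autophagosomes, read 319, 256 and 306 CPM against 143, 155 and 150 CPM. Its log2 fold change was 0.97 ± 0.10 (adjusted p = 8.13e-05). Map1lc3a read 392, 407 and 381 CPM against 247, 272 and 290 CPM, a log2 fold change of 0.55 ± 0.09 (adjusted p = 0.00084). Again neither gene showed overlap between the groups. Gabarap and Gabarapl2 rose less, by 0.34 ± 0.08 (adjusted p = 0.0049) and 0.34 ± 0.09 (adjusted p = 0.0087), without overlap. All 5 calls held under each of 14 alternative settings, left-out libraries included.

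At 16 h the same 5 genes had log2 fold changes from -0.01 (Gabarap) to 0.25 (Gabarapl1), none past the threshold. Map1lc3b read 227, 182 and 174 CPM in DOX against 175, 172 and 177 CPM in V, and the groups overlapped (log2 fold change 0.15 ± 0.10, adjusted p = 0.255). The doxorubicin change was tested against itself between the times in 1 fit over the 7407 genes of both tables. It was larger at 72 h than at 16 h for 4 of the 5 ATG8 genes: Gabarapl1 (0.91 ± 0.20, adjusted p = 0.00419), Map1lc3b (0.82 ± 0.14, adjusted p = 0.0011), Map1lc3a (0.51 ± 0.13, adjusted p = 0.0087) and Gabarap (0.35 ± 0.09, adjusted p = 0.00841). For Gabarapl2 the difference was 0.26 ± 0.14 (adjusted p = 0.193). Of all genes, 26.5% passed this test (12.6% toward a higher and 13.8% toward a lower value at 72 h), and of members 11 of 44 (25.0%), 8 toward a higher and 3 toward a lower value.

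**Figure D2:**
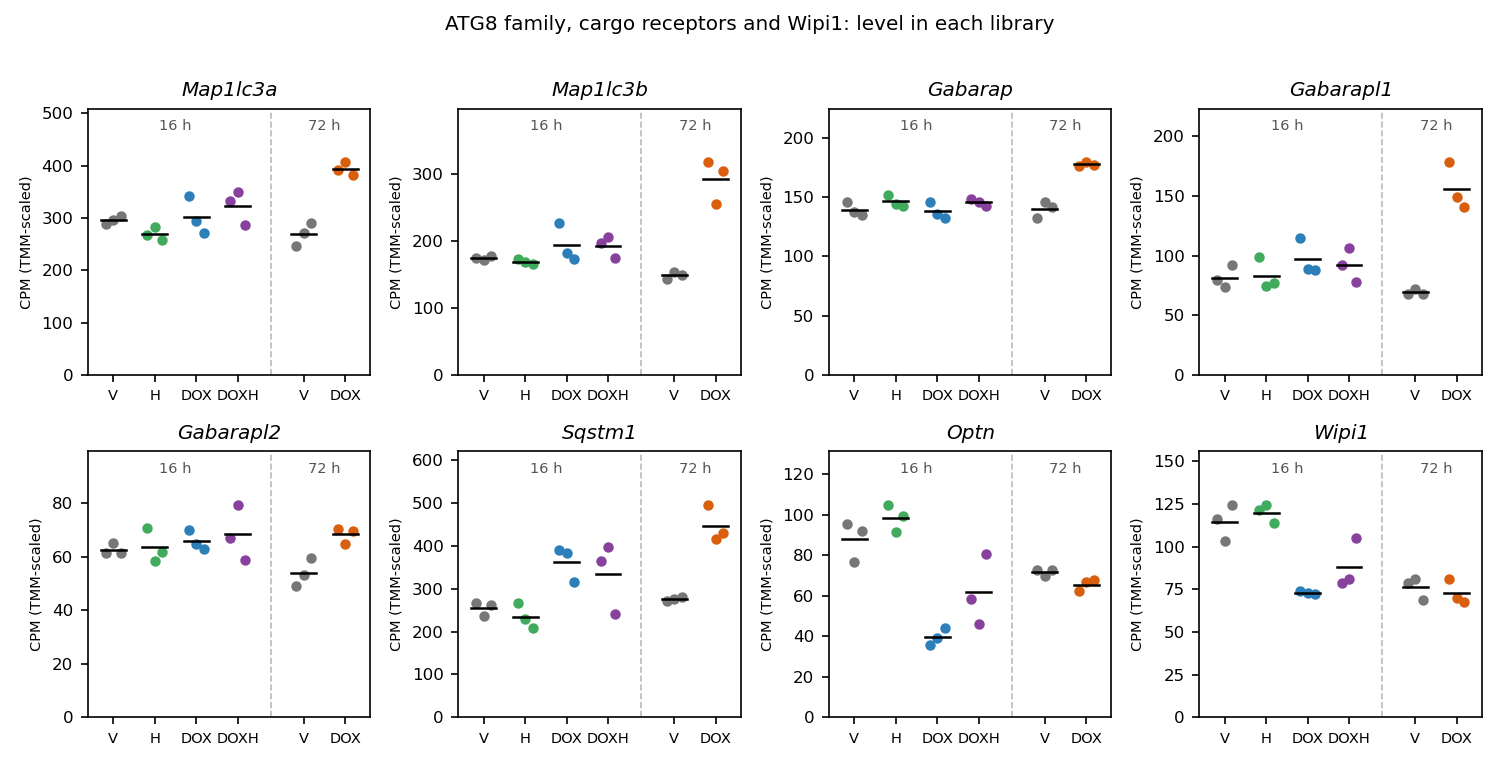
TMM-scaled CPM of the 5 ATG8 genes, 2 cargo receptors and Wipi1 in each of 18 libraries (points) with the group mean (line), 16 h left and 72 h right of the dashed line. The DOX points stand apart from V for all 5 ATG8 genes at 72 h, while Optn and Wipi1 are lowest in DOX at 16 h and lie near V at 72 h.

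The cargo receptors moved in opposite directions at 16 h. Optn, on chr2:5020642-5064051, encodes optineurin, a receptor for ubiquitin-tagged mitochondria and bacteria. It read 35.6, 39.0 and 44.1 CPM in DOX and 95.4, 76.5 and 92.2 CPM in V. Every DOX library lay far below the lowest V library, and the log2 fold change was -1.15 ± 0.17 (edgeR adjusted p = 0.00251). Sqstm1, which encodes p62, a receptor of ubiquitinated aggregates, read 389, 383 and 316 CPM in DOX and 267, 236 and 262 CPM in V, again without overlap (log2 fold change 0.51 ± 0.16, adjusted p = 0.035). That call was lost without DOX replicate 1 or 2 or any 1 of the 3 V replicates, at log2 values of 0.46 to 0.54 (adjusted p = 0.0728 to 0.106). Nbr1, the third receptor, had log2 fold changes of 0.01 at 16 h and -0.01 at 72 h.

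At 72 h Sqstm1 read 496, 415 and 429 CPM in DOX against 271, 276 and 281 CPM in V, a log2 fold change of 0.69 ± 0.09 (adjusted p = 0.00028). Optn at that time read 62.4, 66.6 and 67.6 CPM against 72.8, 70.0 and 72.7 CPM (log2 fold change -0.13 ± 0.07, adjusted p = 0.146). All DOX libraries were still below V, but the difference was not past the threshold. The change of Optn differed between the times by 1.01 ± 0.21 (adjusted p = 0.00291), and that of Sqstm1 by 0.18 ± 0.21 (adjusted p = 0.55).

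Wipi1, which encodes a protein that binds PI3P on the forming membrane, also fell at 16 h. It read 73.9, 73.0 and 72.5 CPM in DOX and 116, 103 and 125 CPM in V at 16 h. The DOX libraries lay close together and below every V library (log2 fold change -0.65 ± 0.11, adjusted p = 0.00321). At the later time it read 80.8, 69.8 and 67.6 CPM in DOX and 79.0, 80.9 and 68.7 CPM in V, with overlap (-0.07 ± 0.10, adjusted p = 0.579). Between the times the change differed by 0.57 ± 0.15 (adjusted p = 0.0125). Its paralogue Wipi2, which recruits the conjugation machinery, had log2 fold changes of 0.33 ± 0.12 (adjusted p = 0.0534) and 0.24 ± 0.10 (adjusted p = 0.06), both just outside the threshold.

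Among the initiation genes, Atg13 encodes the scaffold of the kinase complex, and Ulk1 and Ulk2 its kinases. Atg13 at 72 h read 86.4, 78.3 and 67.7 CPM in DOX and 34.5, 34.2 and 33.7 CPM in V. This gave the highest log2 fold change of the 44 members at 72 h, 1.18 ± 0.10 (edgeR adjusted p = 3.47e-05). At 16 h it read 124, 67.8 and 61.1 CPM in DOX and 44.6, 43.3 and 47.1 CPM in V, so every DOX library was above V but replicate 1 stood far from the others (0.91 ± 0.35, adjusted p = 0.0677). Ulk1 read 57.4, 55.9 and 42.1 CPM in DOX and 75.6, 71.2 and 58.4 CPM in V at 72 h. The highest DOX library lay just below the lowest V library (-0.40 ± 0.14, adjusted p = 0.0369), and the call was lost without the unnumbered DOX replicate (-0.27, adjusted p = 0.0727), V replicate 1 (-0.32, adjusted p = 0.137) or V replicate 2 (-0.38, adjusted p = 0.112). Ulk2 read 65.5, 58.1 and 62.4 CPM against 75.2, 73.4 and 79.3 CPM, without overlap (-0.29 ± 0.08, adjusted p = 0.0105).

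At 16 h Ulk1 lay on the other side, at 92.2, 91.7 and 84.3 CPM in DOX against 70.1, 64.2 and 78.8 CPM in V, a value just outside the threshold (0.33 ± 0.12, adjusted p = 0.0501). The doxorubicin change of Ulk1 was lower at 72 h than at 16 h by -0.74 ± 0.19 (adjusted p = 0.0101), and that of Ulk2 by -0.36 ± 0.10 (adjusted p = 0.0206). Without V replicate 2 at 16 h or V replicate 3 at 72 h the difference for Ulk2 was not past the threshold (-0.32, adjusted p = 0.0555, and -0.33, adjusted p = 0.0509).

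Of the lipid kinase complex, 1 of 5 genes rose at 16 h and 2 of 4 at 72 h. Becn1, which encodes Beclin 1, read 58.5, 52.6 and 54.3 CPM in DOX and 40.1, 43.4 and 39.7 CPM in V at 16 h, without overlap (0.42 ± 0.13, adjusted p = 0.0293). The 72 h values were 49.0, 47.3 and 46.2 CPM against 41.4, 40.8 and 41.7 CPM (0.20 ± 0.07, adjusted p = 0.0307). Leaving out any 1 of the 6 libraries ended the call at 16 h (adjusted p = 0.052 to 0.0895). At 72 h it ended without DOX replicate 1 or 2 or any V replicate (adjusted p = 0.0535 to 0.107). In the annotation 43.9% of the exon bases of Becn1 overlap Cntd1 on the opposite strand, and with no strand setting stated, reads of both genes cannot be told apart.

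Uvrag, a Beclin 1 partner, read 23, 20.4 and 17.7 CPM in DOX and 14.7, 17.04 and 16.7 CPM in V at 72 h (0.33 ± 0.12, adjusted p = 0.0343). The margin between the groups was narrow, and the call was lost without DOX replicate 1 or 2 or any V replicate (0.24 to 0.37, adjusted p = 0.054 to 0.134). Pik3c3, the catalytic subunit VPS34, and Rubcn were not past the threshold at either time, nor was Atg14 at 16 h, the one time at which it was measured. The 4 conjugation genes, Atg5, Atg7, Atg12 and Atg16l1, gave 0 calls at both times, with log2 fold changes from -0.16 to 0.27 at 16 h and from -0.29 to -0.05 at 72 h. The change of Atg16l1 nonetheless differed between the times by -0.42 ± 0.14 (adjusted p = 0.0364). That difference was lost without any 1 of 9 of the 12 libraries, with values from -0.44 to -0.35 (adjusted p = 0.0504 to 0.0882). These were DOX replicates 2 and 3 and all V replicates at 16 h, and DOX replicates 1 and unnumbered and V replicates 1 and 2 at 72 h.

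Tfeb, the gene of the transcription factor TFEB, on chr17:47737030-47792419, fell at both times. It read 10.9, 13.9 and 13.2 CPM in DOX and 16.6, 17.7 and 18.5 CPM in V at 16 h (-0.47 ± 0.12, edgeR adjusted p = 0.0117). Later, at 72 h, its level was 11.9, 12.99 and 14.4 CPM in DOX and 17.3, 14.7 and 16.6 CPM in V (-0.31 ± 0.11, adjusted p = 0.0427). The groups did not overlap at either time, but at 72 h the highest DOX library lay just below the lowest V library. The 72 h call was lost without DOX replicate 1 or 2 or V replicate 1 or 3 (-0.30 to -0.24, adjusted p = 0.0679 to 0.131). Tfe3, its relative, had log2 fold changes of 0.18 at 16 h (adjusted p = 0.266) and 0.20 at 72 h (adjusted p = 0.17).

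Of the lumenal proteins of the lysosome, cathepsin L moved most. Ctsl read 221, 158 and 159 CPM in DOX and 113, 113 and 120 CPM in V at 16 h, and 233, 234 and 208 CPM against 110, 114 and 108 CPM at 72 h. At 72 h every DOX library was at about double the V level. The log2 fold changes were 0.64 ± 0.21 (adjusted p = 0.0385) and 1.03 ± 0.08 (adjusted p = 3.47e-05). The 16 h call was lost without any 1 of the 6 libraries (0.46 to 0.72, adjusted p = 0.051 to 0.144), and the 72 h call held throughout. In the annotation 26.8% of its exon bases overlap the gene model Gm47123, as do 34.4% of those of Ctsd with Gm49369, 28.3% of those of Gabarapl1 with 1700101I11Rik and 17.3% of those of Sqstm1 with Mrnip, so these counts may hold reads of the partner.

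Ctsz, which encodes cathepsin X, read 19.3, 20.1 and 23.5 CPM in DOX and 10.7, 12.6 and 13.4 CPM in V at 72 h, without overlap (0.78 ± 0.12, adjusted p = 0.000653). At 16 h its groups overlapped (0.11 ± 0.17, adjusted p = 0.637). Npc2, which hands cholesterol to the membrane carrier NPC1, read 54.3, 48.3 and 50.4 CPM in DOX and 40.6, 45.6 and 40.1 CPM in V at 16 h, and 44.3, 52.6 and 50.4 CPM against 36.3, 36.6 and 43.4 CPM at 72 h. Both rises were modest, at 0.28 ± 0.09 (adjusted p = 0.0388) and 0.34 ± 0.10 (adjusted p = 0.0166). The 16 h call was lost without any library except V replicate 2 (0.23 to 0.32, adjusted p = 0.053 to 0.126), and the 72 h call without V replicate 1 or 2 (adjusted p = 0.0683 and 0.0668).

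Ctsb, the gene of cathepsin B, went the other way at 72 h. It read 217, 203 and 253 CPM in DOX against 286, 253 and 276 CPM in V, the highest DOX and the lowest V library lying close together (-0.28 ± 0.10, adjusted p = 0.0433). The call was lost without DOX replicate 1 or 2 or V replicate 1 or 3 (-0.27 to -0.21, adjusted p = 0.106 to 0.127). Ctsd, the gene of the aspartic protease cathepsin D, read 740, 729 and 734 CPM in DOX and 758, 759 and 821 CPM in V at 16 h (-0.09 ± 0.08, adjusted p = 0.432). Its 72 h levels were 637, 615 and 695 CPM against 628, 578 and 568 CPM, with overlap (0.13 ± 0.09, adjusted p = 0.229). In all, 6 of the 10 lumenal genes (Ctsa, Ctsd, Gaa, Hexa, Neu1 and Psap) were past the threshold at neither time.

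**Figure D3:**
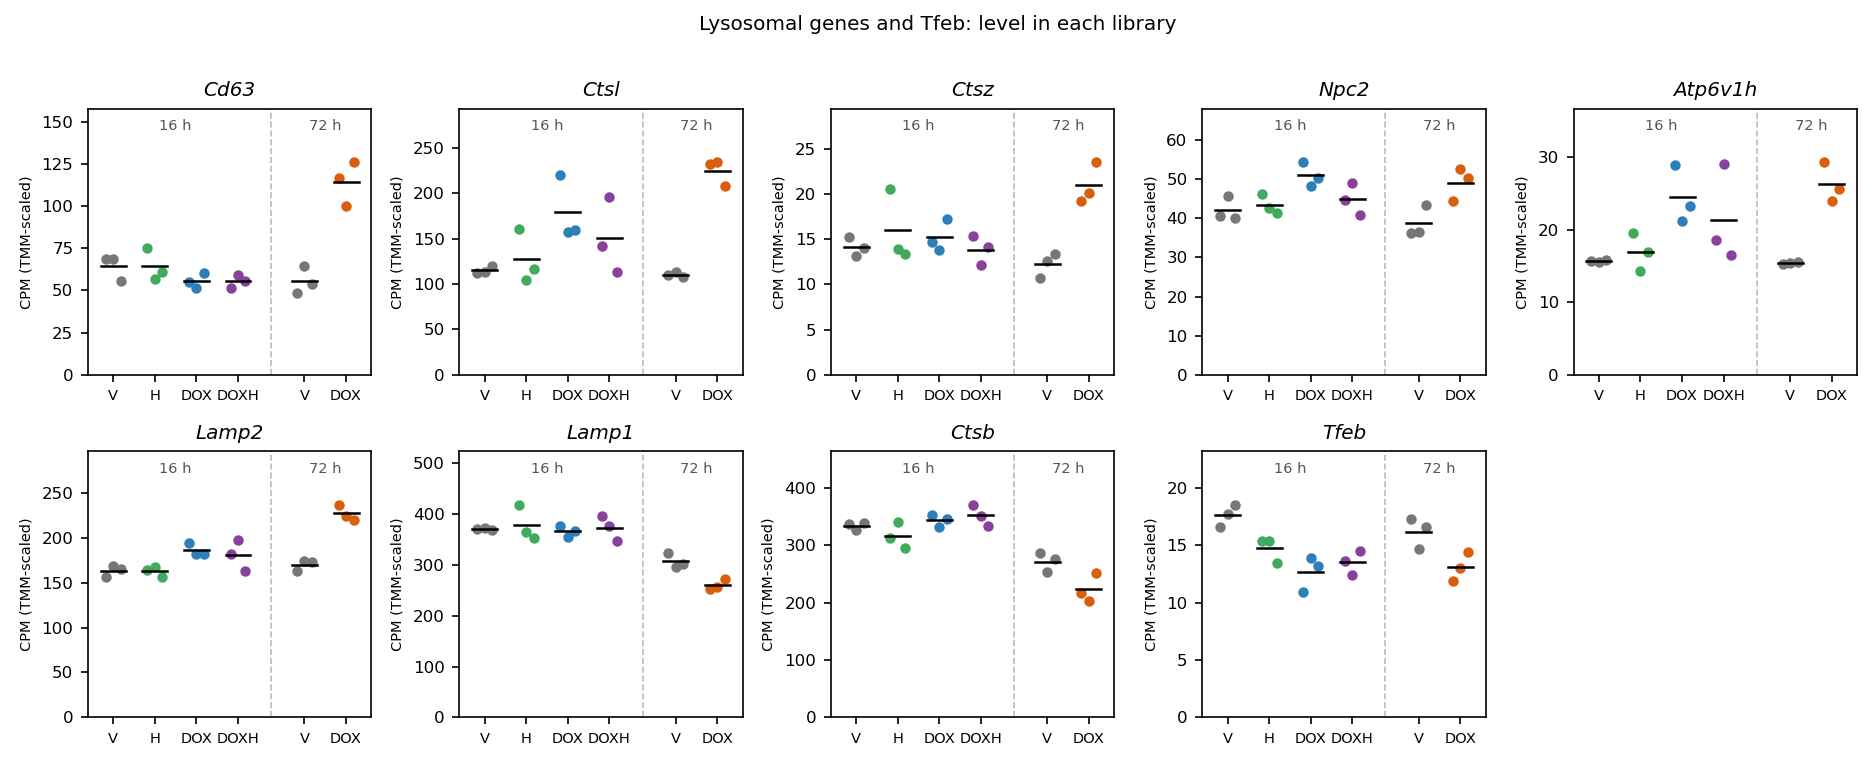
TMM-scaled CPM of 8 lysosomal genes and Tfeb in each of 18 libraries (points) with the group mean (line), 16 h left and 72 h right of the dashed line. Cd63, Ctsl, Ctsz, Atp6v1h and Lamp2 stand above V in every DOX library at 72 h, whereas Lamp1, Ctsb and Tfeb stand below.

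The 2 main glycoproteins of the lysosomal membrane diverged. Lamp2, the gene of a membrane protein needed for fusion and for chaperone-mediated uptake, read 237, 225 and 220 CPM in DOX and 163, 174 and 173 CPM in V at 72 h (0.42 ± 0.08, edgeR adjusted p = 0.00182). Lamp1, whose promoter window above carries 4 E-boxes, read 253, 257 and 272 CPM in DOX and 325, 297 and 303 CPM in V (-0.24 ± 0.08, adjusted p = 0.0287). Neither gene showed overlap between the groups, and the directions were opposite. The Lamp1 call was lost without DOX replicate 1 or 2 or V replicate 1 or 3 (-0.26 to -0.21, adjusted p = 0.0594 to 0.0824). At 16 h Lamp1 read 378, 356 and 366 CPM against 370, 373 and 370 CPM (-0.02 ± 0.08, adjusted p = 0.885, with the opposite sign without DOX replicate 2), and Lamp2 194, 181 and 182 CPM against 156, 169 and 165 CPM (0.19 ± 0.08, adjusted p = 0.0888).

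Cd63, the gene of a tetraspanin of late endosomes, lysosomes and exosomes, had the largest difference between the times of the 44 members. At 72 h it read 116, 100 and 126 CPM in DOX and 48.6, 64.5 and 53.9 CPM in V, without overlap (1.04 ± 0.12, adjusted p = 0.000183). At 16 h it read 55.1, 51.7 and 60.3 CPM against 68.8, 68.5 and 55.8 CPM, with overlap (-0.21 ± 0.12, adjusted p = 0.198). The change differed between the times by 1.24 ± 0.18 (adjusted p = 0.000525). A pseudogene, Cd63-ps, exists, and how the authors' counting shared reads with it is not known here. Scarb2, the gene of LIMP-2, which carries glucocerebrosidase to lysosomes, read 247, 253 and 246 CPM in DOX and 212, 200 and 200 CPM in V at 16 h, without overlap (0.29 ± 0.08, adjusted p = 0.0153). This call was lost without V replicate 2 (0.27, adjusted p = 0.0512) or V replicate 3 (0.28, adjusted p = 0.055). At 72 h Scarb2 had a log2 fold change of 0.08 (adjusted p = 0.422). Laptm4a, Mcoln1 and Npc1 were past the threshold at neither time.

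Of the 4 proton pump subunits, Atp6v1h, a regulatory subunit of the cytosolic part, read 29.0, 21.2 and 23.3 CPM in DOX and 15.7, 15.5 and 15.9 CPM in V at 16 h (0.64 ± 0.20, adjusted p = 0.0304). At 72 h it read 29.3, 23.9 and 25.7 CPM against 15.2, 15.4 and 15.5 CPM (0.78 ± 0.10, adjusted p = 0.000206). The V libraries were tight at both times and every DOX library lay above them. The 16 h call was lost without any library except DOX replicate 2 (0.50 to 0.68, adjusted p = 0.0554 to 0.11). Atp6v0d1, a subunit of the membrane part, read 23.5, 24.4 and 24.4 CPM in DOX and 18.9, 20.2 and 21.2 CPM in V at 72 h (0.26 ± 0.08, adjusted p = 0.0215), a call lost without DOX replicate 2 or V replicate 1 or 2 (adjusted p = 0.0526 to 0.0814). Atp6v1a and Atp6v0a1 were past the threshold at neither time.

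Hesperitin was compared at 16 h, with the question whether it moves these genes alone or beside doxorubicin. By edgeR 0 of 45 members and 0% of 10393 genes were called in H against V, in DOXH against DOX, in DOXH against V and in the interaction of both compounds. At an unadjusted p under 0.05 there were 2 members and 664 genes in H against V, 2 and 1958 in DOXH against DOX, 9 and 1749 in DOXH against V, and 2 and 1228 in the interaction. DESeq2 called 13, 390, 131 and 53 genes in the same order, among them 0, 1, 0 and 0 members. The H libraries were also sequenced more deeply than the others.

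The 1 member that DESeq2 called in DOXH against DOX was Optn. It read 58.5, 46.2 and 80.5 CPM in DOXH, above the 35.6 to 44.1 CPM of DOX in every library, and up to the 76.5 to 95.4 CPM of V in replicate 3. By edgeR the log2 difference was 0.64 ± 0.17 (adjusted p = 0.131), and by DESeq2 it was 0.65 (adjusted p = 0.018). Wipi1 read 78.4, 81.1 and 105 CPM in DOXH, also above the 72.5 to 73.9 CPM of DOX in every library (0.27 ± 0.11, edgeR adjusted p = 0.224). In all, 4 of 45 members had every DOXH library above every DOX library, and 2 had every one below. Of all 10393 genes, 1053 lay above in this way and 906 below. Without DOXH replicate 2, edgeR called Optn higher (0.81, adjusted p = 0.00772) and Becn1 lower (-0.34, adjusted p = 0.0493) in DOXH than in DOX. No other member was called in that fit, beside 15% of all genes (1554 of 10393). The library left out lay among the DOX libraries on the first principal component, so its removal favours such calls.

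For the 9 members called in DOX against V, replicate 3 of DOXH lay within the V range in 7 (Scarb2 at its upper edge) and between the ranges in 2. Replicate 1 lay within the V range in 1, within the DOX range in 2 and between in 6. Replicate 2 lay within the V range in 0, within the DOX range in 3, between in 2 and beyond the DOX range in 4 (Atp6v1h, Becn1, Scarb2 and Sqstm1). For Atp6v1h the margin was small, at 29.03 CPM against a highest DOX value of 28.99 CPM. The H libraries, which had no doxorubicin, lay within the V range in 2, 4 and 3 of the 9, so the range of 3 V libraries is a narrow reference. These range counts were made for the members alone. The first principal component of all genes put the 3 DOXH libraries in the same order, so this order is not particular to the members. The DOXH group thus holds libraries near V and near DOX. Sqstm1, for example, read 364, 396 and 241 CPM in DOXH beside 389, 383 and 316 CPM in DOX. The summed cardiomyocyte markers moved with this order, at 38900, 36300 and 58100 CPM in DOXH replicates 1 to 3. The neutrophil markers, at 154, 151 and 62.6 CPM, set only replicate 3 apart. Without DOXH replicate 3, DOXH differed from V in 6 of 45 members, beside 16.1% of all genes (1674 of 10393). Becn1 (0.39), Scarb2 (0.28) and Sqstm1 (0.58) were higher, and Optn (-0.75), Tfeb (-0.43) and Wipi1 (-0.52) lower. The library left out was the DOXH library nearest V on the first principal component, so its removal favours such calls.

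**Figure D4:**
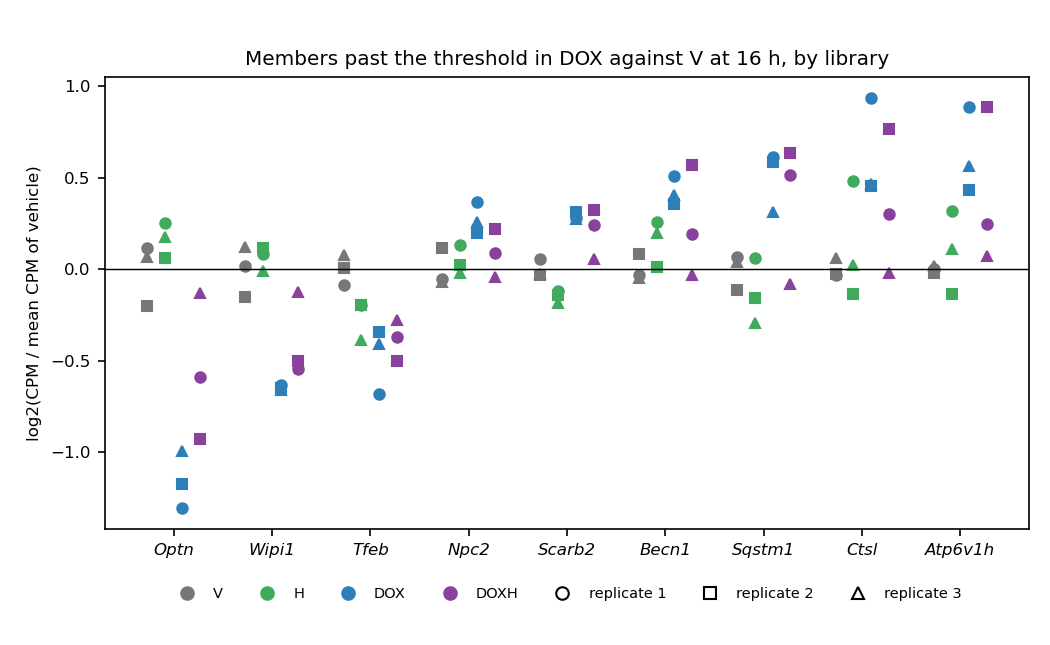
Log2 of the CPM over the mean CPM of V (vertical axis) at 16 h for the 9 members called in DOX against V, for each library of V, H, DOX and DOXH, with a symbol per replicate. DOXH replicate 3 (purple triangle) lies within the V range for 7 of the 9 genes, and DOXH replicate 2 (purple square) lies at or beyond the DOX points for genes such as Atp6v1h and Sqstm1.

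The other genes of the pathway, from 7 lists, were read in the same fits. Beside the counts of each list, 15.6% of all genes were higher and 16.6% lower at 16 h. At 72 h these shares were 26.5% and 27.2%. Of the other core autophagy genes, 3 of 20 were higher and 3 lower at 16 h, and 3 of 17 were higher and 7 lower at 72 h. Atg9a, the gene of the transmembrane protein of the seed vesicles, fell at both times (-0.93 ± 0.17, edgeR adjusted p = 0.00371, and -0.53 ± 0.08, adjusted p = 0.000663). So did Atg4d, which encodes a protease acting on ATG8 (-0.75, adjusted p = 0.00244, and -0.45, adjusted p = 0.00191). Atg10, an E2-like enzyme of the conjugation system, fell at 16 h (-0.86, adjusted p = 0.00256). Its levels at 72 h were also lower, at 13.69 to 14.52 CPM in DOX against 16.47 to 18.21 CPM in V. Wdr45, a PI3P-binding relative of Wipi1, rose at 72 h (0.62, adjusted p = 0.000265).

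Of 8 further receptors, 3 were higher at 16 h, and 2 were higher and 1 lower at 72 h. Tax1bp1, a ubiquitin-binding receptor, rose at both times (0.57, adjusted p = 0.0109, and 0.46, adjusted p = 0.00245), and Retreg1, a receptor for the endoplasmic reticulum also known as FAM134B, rose at 72 h (0.59, adjusted p = 0.00306). Among fusion genes 3 of 14 were higher and 2 lower at 16 h, and 3 of 12 were higher and 3 lower at 72 h. The SNARE genes of the same fusion step moved apart at 72 h, Vamp8 by 0.82 (adjusted p = 0.000145) and Stx17 by -0.41 (adjusted p = 0.00658).

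Of the other lysosomal hydrolases, 6 of 32 were higher and 4 lower at 16 h, and 4 of 24 were higher and 5 lower at 72 h. Smpd1, the gene of acid sphingomyelinase, fell at both times (-0.90 ± 0.18, adjusted p = 0.00555, and -0.94 ± 0.09, adjusted p = 5.1e-05). It read 55.8, 58.8 and 56.8 CPM in DOX against 121, 105 and 103 CPM in V at 72 h, without overlap. Ctss, the gene of cathepsin S and also in the macrophage list, rose at 72 h (0.70, adjusted p = 0.000743). Of the other lysosomal membrane genes, 5 of 20 were higher and 1 lower at 16 h, and 1 of 14 was higher and 7 lower at 72 h. Laptm4b changed from 0.32 (adjusted p = 0.0186) at 16 h to -0.78 (adjusted p = 0.000336) at 72 h. The other proton pump genes gave 0 calls of 13 at 16 h, and 3 higher and 2 lower of 12 at 72 h.

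Genes that control the pathway through mTORC1, AMPK and TFEB gave 4 higher and 4 lower of 30 at 16 h, and 3 higher and 12 lower of 28 at 72 h. Sesn2, the gene of a stress-induced inhibitor of mTORC1, had the largest rise of the list at 16 h, at 20.3, 18.9 and 17.5 CPM in DOX against 3.28, 1.36 and 3.04 CPM in V (2.89 ± 0.54, adjusted p = 0.00432). Among the genes that fell at 16 h was Lamtor1, an anchor of mTORC1 on the lysosome (-0.63, adjusted p = 0.00384). Its levels at 72 h were also lower, at 43.07 to 43.77 CPM in DOX against 57.12 to 57.64 CPM in V. The falls with the smallest p at 72 h included Rragd, a lysosomal GTPase of mTORC1 signalling (-0.67, adjusted p = 0.000135). Also among them were Ppp3cb, a catalytic subunit of the phosphatase calcineurin, which acts on TFEB (-0.63, adjusted p = 0.000146), and Prkaa2, the AMPK subunit of heart and skeletal muscle (-0.93, adjusted p = 0.000421).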

How the data were processed

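Heart RNA was prepared with TRI Reagent, poly(A)-selected and sequenced as single-end Illumina reads, per the labels' protocols. The authors deposited expected counts per gene in 1 table per time, made with RSEM on GRCm38 (mm10) per the submitters' processing notes, which also name DESeq2. For versions, strand setting and annotation, the sources used here give nothing. Groups came from the labels (24 samples in 8 groups). Among the 72 h columns, 6 bear codes found in no label and were left out, and 1 DOX column, whose number matches no label, served as an unnumbered replicate.

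The expected counts were rounded and filtered (filterByExpr), with TMM scaling, leaving 10393 genes at 16 h and 7703 at 72 h. A robust quasi-likelihood fit in edgeR 4.0.16 (R 4.3.3) was run on the 12 libraries of 16 h, the 6 of 72 h, and all 18 for the difference between times (7407 genes), the p-values being adjusted by Benjamini-Hochberg across every gene in the fit, at a threshold of 0.05. SE is the absolute log2 fold change over the square root of F. A prior count of 2 entered log2 CPM. The fits were tested on simulated counts. The planned 72 h fit of 12 libraries became one of 6. Depth and 3 libraries per group limit what small changes can be called.

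Values were printed for up to 3 members per role with the smallest p past the threshold at each time, plus Sqstm1, Tfeb, Map1lc3b, Lamp1, Lamp2 and Ctsd, and for genes outside the set up to 3 per list. Optn, Wipi1, Ulk1, Atg13, Cd63 and Ctsz at the time they did not pass, and DOXH values, were added after their values were seen. The members and lists were chosen with earlier results of these data known. Gene positions are those of GENCODE for GRCm38, and promoters come from RefSeq. Alternatives were RLE and upper quartile factors, mitochondrial genes left out, no filter, genes with a mean CPM of 5 or more, limma 3.58.1 voom, DESeq2 1.42.0, a replicate block, only the groups compared, and each library left out.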

Additional observations from a re-analysis of the deposited data

Results flagged for a closer look

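The doxorubicin change differed between 16 h and 72 h in 11 of the 44 members tested (25.0%, beside 26.5% of all genes), by edgeR with an adjusted p under 0.05, and each is listed for that reason. It was higher at 72 h for Cd63 by 1.24 (adjusted p = 0.000525), Optn by 1.01 (adjusted p = 0.00291), Gabarapl1 by 0.911 (adjusted p = 0.00419), Map1lc3b by 0.817 (adjusted p = 0.0011) and Ctsz by 0.657 (adjusted p = 0.0395) on the log2 scale. Smaller differences in the same direction were those of Wipi1 (0.573, adjusted p = 0.0125), Map1lc3a (0.507, adjusted p = 0.0087) and Gabarap (0.346, adjusted p = 0.00841). It was lower at 72 h for Ulk1 (-0.743, adjusted p = 0.0101), Atg16l1 (-0.418, adjusted p = 0.0364) and Ulk2 (-0.355, adjusted p = 0.0206). For Optn and Wipi1 a fall at 16 h was not past the threshold at 72 h. Cd63, Ctsz and the ATG8 genes were higher at 72 h and not past the threshold at 16 h. The 16 h log2 fold changes of Cd63 (-0.21) and Gabarap (-0.01) were negative. Of the 11, 7 held under all 20 alternatives. Ctsz lost the call without any 1 of 9 libraries (0.55 to 0.71, adjusted p = 0.0509 to 0.103), namely all V and DOX replicates 1 and 2 at 16 h, and V replicates 1 and 2 and DOX replicates 2 and unnumbered at 72 h. The 16 h and 72 h libraries of V and DOX also differ in depth, which cannot be told apart from time.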

How the results depend on the processing

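Optn, Wipi1 and Tfeb at 16 h and 13 of the 21 calls at 72 h, among them all 5 ATG8 genes, held under every alternative run. The 6 rises at 16 h did not: 1 to 3 members were higher when 1 library was left out, and with only the groups compared in the fit 11 were higher and 5 lower. Over all genes, 3352 were called at 16 h, in place of which fits without 1 library called 1928 to 2409 and the fit with only the groups compared called 4571; the cause was not tested. At 72 h the 5 lower members became 3 with the replicate block, 3 with upper quartile factors, and 1 to 6 without 1 library. DESeq2 ended the 72 h calls of Atp6v0d1 (adjusted p = 0.0556), Becn1 (0.0613), Tfeb (0.0886) and Uvrag (0.0513), upper quartile factors those of Ctsb (0.0671) and Tfeb (0.0648), and voom the Ctsz difference between times (0.0593). Calls were also gained. Ulk1 at 16 h passed as higher in edgeR with upper quartile factors (adjusted p = 0.0413), in DESeq2 (0.0443) and in voom (0.0473), among other settings. Laptm4a at 72 h passed as lower in DESeq2 (0.0292) and voom (0.0474), and Psap at 72 h in DESeq2 (0.0347). Of the 3 members lower in the difference between times, 1 to 3 were called without 1 library. Where edgeR called 0 genes, DESeq2 called 13 in H against V, 390 in DOXH against DOX, 131 in DOXH against V and 53 in the interaction, and leaving out 1 library gave up to 47, 1554, 1674 and 254, with only the groups compared giving up to 1. In DOXH against DOX, DESeq2 gave 1 higher member, and leaving out 1 library gave 0 to 1 higher and 0 to 1 lower. In DOXH against V, leaving out 1 library gave 0 to 3 higher and 0 to 3 lower. The log2 fold change of Lamp1 at 16 h, -0.0169, changed sign without DOX replicate 2 (0.00549; range -0.0365 to 0.00549).

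The replicate numbers of the labels showed no steady pairing of the samples at 16 h, and 3 libraries per group cannot exclude one. Same-numbered deviations at 16 h correlated at -0.178 to -0.106 for DOX and V. They correlated at 0.0384 to 0.228 for DOX and H, and at -0.415 to 0.25 for DOX and DOXH. The own number was best in 10 of 36 comparisons, each with 3 libraries to choose from. At 72 h there were 2 pairs (0.197 and 0.245). With the replicate block 3064 genes were called at 16 h, 3818 at 72 h and 1214 in place of 1960 for the difference between times, where Atg16l1, Ctsz, Ulk2 and Wipi1 were not past the threshold. At 72 h Becn1 (0.228, adjusted p = 0.0786), Lamp1 and Tfeb were not. Depth and 3 libraries per group limit calls of small changes.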

Other observations

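Atg13, Ctsl and Atp6v1h shared their high libraries at 16 h, a pattern noticed in the data. Atg13 read 124 CPM in DOX replicate 1 and 133 CPM in DOXH replicate 2, against 51.7 to 67.8 CPM in the other DOX and DOXH libraries. Ctsl read 221 and 196 CPM in the same pair of libraries, against 114 to 159 CPM in the others, and Atp6v1h read 29.0 CPM in both, against 16.5 to 23.3 CPM. Within H, Ctsl was highest in replicate 1 (161 CPM, against 105 and 117 CPM), as were Atg13 (48.6 CPM, against 44.0 and 38.7 CPM) and Atp6v1h (19.5 CPM, against 14.3 and 16.9 CPM). On the second principal component DOX replicate 1 (8.69), DOXH replicate 2 (11.7) and H replicate 1 (12.04) were the highest of their groups. Neutrophil markers summed to 260, 151 and 164 CPM in these 3 libraries, beside 267 CPM in DOX replicate 2, 154 CPM in DOXH replicate 1 and 10.0 CPM in H replicate 2, and their part was not tested.

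The median log2 distance of the 22 autophagosome genes from the V mean was 0.17, 0.05 and -0.00194 in DOX replicates 1 to 3 and 0.09, 0.20 and -0.01 in DOXH replicates 1 to 3, so it was highest in the same pair of libraries. That of the 21 lysosomal genes was 0.056, -0.012 and 0.048 in DOX and 0.093, 0.026 and -0.040 in DOXH. It was therefore not highest in DOXH replicate 2.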
